A study of Ciona robusta with 15 samples.

Results

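Embryos of the ascidian Ciona robusta that received Etr-driven Bra alone were compared with control embryos. The comparison uses 6 of the 15 RNA-sequencing libraries of the study: 3 of embryos given Bra, a Venus-Bra fusion behind the Etr1 enhancer (Etr1>Venus-Bra), and 3 of control embryos given a fluorescent nuclear reporter behind the same enhancer (Etr1>H2B-Venus). All plasmids were introduced by electroporation of fertilised eggs, so both groups carried an Etr1-driven plasmid and differed in what it encoded. Each library was made from 300 whole embryos grown at 21 °C and collected at Hotta stage 19.5. The enhancer is active in neural tissue, and the rest of each embryo contributed RNA to the same library. The samples were chosen by their labels, and all 15284 gene models of the table were considered. The other 9 libraries, of embryos given Bra with Foxa.a, with Mnx or with both, are used only where they show how Bra alone differs from them.

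Bra (Brachyury) is a T-box transcription factor that in ascidian embryos is switched on in notochord precursors and activates the genes of the notochord, the rod of cells that stiffens the larval tail. Etr is an older name of Celf3/4/5/6, an RNA-binding protein of the developing nervous system, and its enhancer is commonly used to direct genes to neural cells. The series asks how Bra acts in notochord fate as one member of a network of transcription factors, and in this comparison Bra was placed in neural tissue without the other factors tested.

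Genes are given in the files as KH gene models, without names. Names are given for 17 gene models whose identifiers are known for this species, and the pairing of name and identifier could not be checked against an annotation here. The libraries held 19448379 to 23570063 recovered reads, with the 10 most abundant genes taking 9.30% to 10.04% of all reads. The size factors of the table bring the libraries to 1 scale, and values on it are called normalised reads below. Libraries that share a replicate number deviated together: across the 14221 gene models tested, deviations from the group mean correlated at r = 0.67, 0.60 and 0.57 for control and Bra libraries of the same number, and at r = -0.37 to -0.19 for those of different numbers. Deviations from a mean of 3 libraries sum to 0, so the negative values go with the positive ones and are not separate evidence. Same-numbered libraries were treated as pairs, a choice made before the calls. Changes are the mean log2 difference within pairs, on the log2(normalised reads + 1) scale, with their standard error.

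The electroporated gene was read first. Bra (KH.S1404.1) stood at 594, 770 and 542 normalised reads in control replicates 1, 2 and 3 and at 933, 1404.5 and 778 in Bra replicates 1, 2 and 3. All 3 Bra libraries lay above all 3 controls, with replicate 2 the highest in both groups. Bra rose by 0.68 ± 0.08 (log2 fold change, n = 3 pairs, limma adjusted p = 2.52e-08). Unpaired, the same libraries did not put it past the threshold (limma adjusted p = 0.408). Reads of the plasmid and of the embryo's own gene could not be separated, and the controls, which have a notochord, already held Bra reads. The level is thus a sum over both sources, and the part of each in the rise is not known. Of the 1010 gene models called higher, 594 had a larger log2 fold change than Bra itself.

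Foxa.a and Mnx were not given in this comparison. Foxa.a (KH.C11.313), a forkhead factor of endoderm, notochord and ventral neural tissue, read 5153, 5686 and 5336 normalised reads in control replicates 1 to 3 and 6581, 8080 and 6368 in Bra replicates 1 to 3. It rose by 0.37 ± 0.08 (limma adjusted p = 6.89e-04), again with the Bra libraries above every control. Without replicate 1 its log2 fold change was 0.38 and missed the threshold (adjusted p = 0.157), as did the unpaired fit (adjusted p = 0.413). Mnx (KH.L128.12), a homeodomain factor, read 401, 455 and 555 in control and 355, 434 and 393 in Bra embryos. The Mnx groups overlapped, and its log2 fold change of -0.25 ± 0.10 did not pass (limma adjusted p = 0.121), while edgeR with the same pairs put it just past the threshold (adjusted p = 0.0454).

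**Figure D1:**
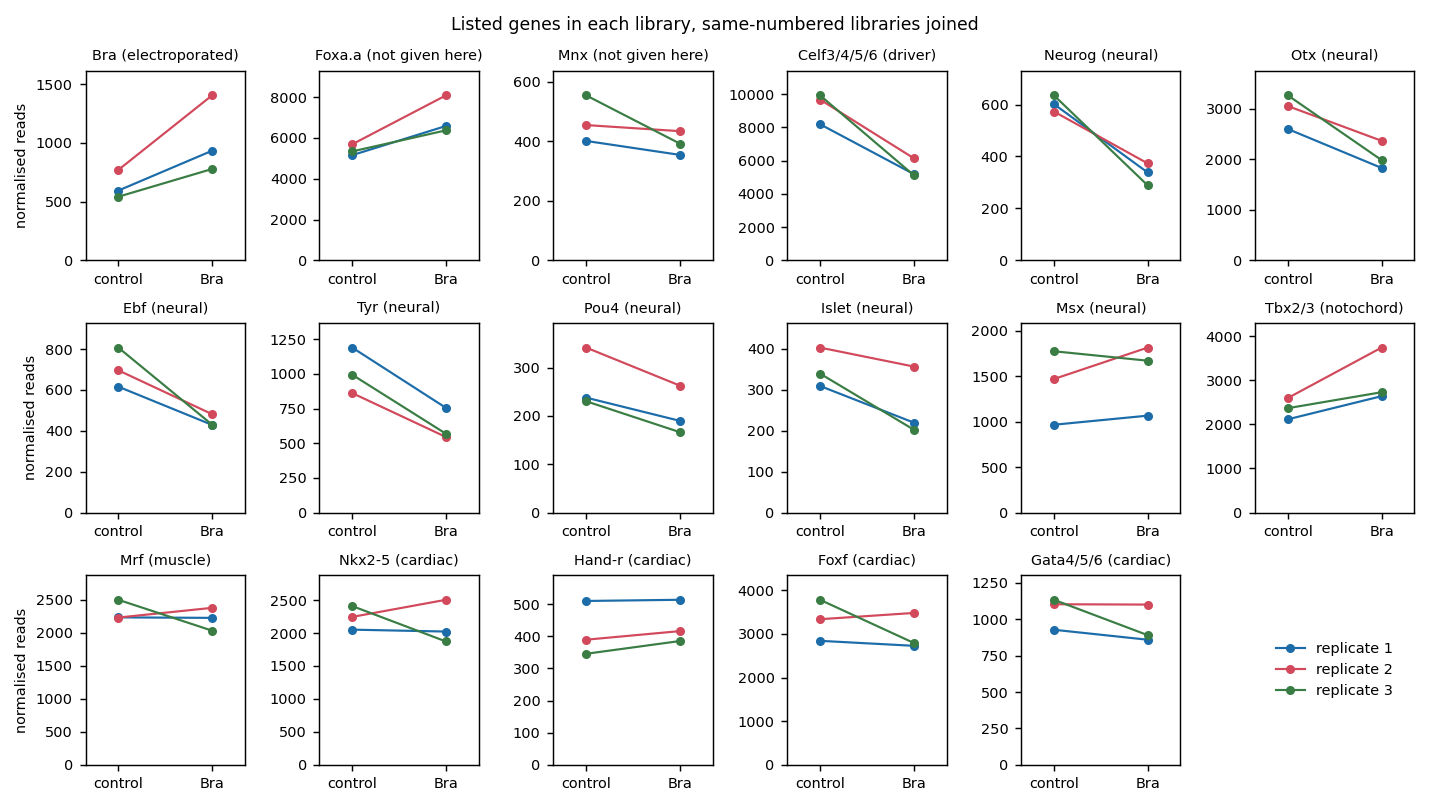
Normalised reads (vertical axes, from 0) of the 17 listed genes in the 3 control and 3 Bra libraries, each line joining the libraries of 1 replicate number. Bra, Foxa.a and Tbx2/3 go up in all 3 pairs, and Celf3/4/5/6 and 6 of the 7 neural genes go down in all 3.

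The gene whose enhancer drove the plasmids was lower where that enhancer drove Bra. Celf3/4/5/6 (KH.C6.128) had 8189, 9672 and 9924 normalised reads in the controls and 5191, 6144 and 5123 in Bra embryos. Every Bra library lay below every control. It fell by 0.76 ± 0.08 on the log2 scale (limma adjusted p = 1.24e-09), and among the 341 gene models called lower it ranked 3 by the loss of normalised reads, with 3.79% of their summed loss. The call held unpaired (adjusted p = 0.0284).

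Most listed genes of the nervous system fell with it: 6 of the 7 on the neural list were called lower and none higher. The list median was -0.53, beside a median of -0.02 over all gene models tested. The list was chosen with earlier results of these data known, so its counts and median describe these genes and test nothing wider. Among all gene models, 2.40% were called lower and 7.10% higher. In bulk libraries fewer neural cells and less RNA per neural cell cannot be told apart. Neurog (KH.C6.129), a basic helix-loop-helix factor that starts neuronal differentiation, read 602, 573 and 635 normalised reads in control replicates 1 to 3 and 338, 373 and 289 in Bra replicates 1 to 3. Its groups were well apart, it fell by 0.86 ± 0.10 (limma adjusted p = 3.23e-09), and 126 of the 14221 gene models had a lower log2 fold change. With an adjusted p = 0.0282, it was also called unpaired.

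Tyr (KH.C12.469), the tyrosinase that makes pigment in the sensory organs of the larval brain, read 1190, 862 and 994 in the controls and 755, 545 and 568 in Bra embryos. It fell by 0.71 ± 0.08 (limma adjusted p = 5.14e-09), with the Bra libraries below all controls. Ebf (KH.L24.10), a factor of differentiating neurons, read 616, 696 and 808 against 429, 482 and 431 and fell by 0.65 ± 0.09 (limma adjusted p = 4.15e-07). Otx (KH.C4.84), a homeobox gene that patterns the anterior brain, read 2600, 3055 and 3266 against 1830, 2367 and 1985, also without overlap. It fell by 0.53 ± 0.08 (limma adjusted p = 9.51e-07). These 3 calls rest on the pairs: unpaired, the limma adjusted p was 0.136 for Tyr, 0.0869 for Ebf and 0.171 for Otx.

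For Islet (KH.L152.2) and Pou4 (KH.C2.42), both factors of neuronal subtypes, the groups overlapped and only the pairs showed a fall. Islet read 309, 403 and 339 normalised reads in control and 220, 356 and 202 in Bra embryos, a fall of 0.47 ± 0.11 (limma adjusted p = 0.00190). Pou4 read 238, 342 and 230 against 190, 263 and 166, a fall of 0.39 ± 0.11 (limma adjusted p = 0.0159). In both genes replicate 2 was high in both groups, which is the shared deviation that the pairs remove. These were the weakest neural calls: that of Pou4 ended without any 1 of the 3 replicate numbers (highest adjusted p = 0.103) and that of Islet without replicate 3 (adjusted p = 0.0920), and both ended with DESeq2 (adjusted p = 0.249 and 0.0776) and unpaired (limma adjusted p = 1.00 and 0.973). The paired fit of all 15 libraries called neither (adjusted p = 0.0966 for Pou4 and 0.108 for Islet).

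Msx (KH.C2.957), a homeodomain factor of the neural plate border, was the neural gene that did not pass. Its values, 966, 1468 and 1774 in control and 1065, 1814 and 1670 in Bra embryos, overlapped almost fully. Its log2 fold change was 0.12 ± 0.08 (limma adjusted p = 0.513), with the pair of replicate 3 going the opposite way to the rest.

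Tbx2/3 (KH.L96.87), which encodes a T-box factor, was listed as a notochord gene. It read 2116, 2599 and 2368 normalised reads in control replicates 1 to 3 and 2640, 3743 and 2730 in Bra replicates 1 to 3, so the lowest Bra library lay just above the highest control. Tbx2/3 rose by 0.35 ± 0.08 (limma adjusted p = 8.93e-04). The call ended without replicate 1, where the log2 fold change was 0.37 (adjusted p = 0.0935), and unpaired (adjusted p = 0.826).

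The muscle and cardiac genes gave no call. Mrf (KH.C14.307), the myogenic factor of the tail muscle, had 2236, 2233 and 2503 normalised reads in control and 2228, 2380 and 2035 in Bra embryos, with a log2 fold change of -0.07 ± 0.08 (limma adjusted p = 0.777). The 4 factors of the cardiac lineage, Nkx2-5 (KH.C8.482), Hand-r (KH.C1.1116), Foxf (KH.C3.170) and Gata4/5/6 (KH.L20.1), had log2 fold changes between -0.15 and 0.09, and 0 of the 4 passed. Their groups overlapped in every case. Of the 17 listed genes, 3 were called higher, 7 lower and 7 not called.

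**Figure D2:**
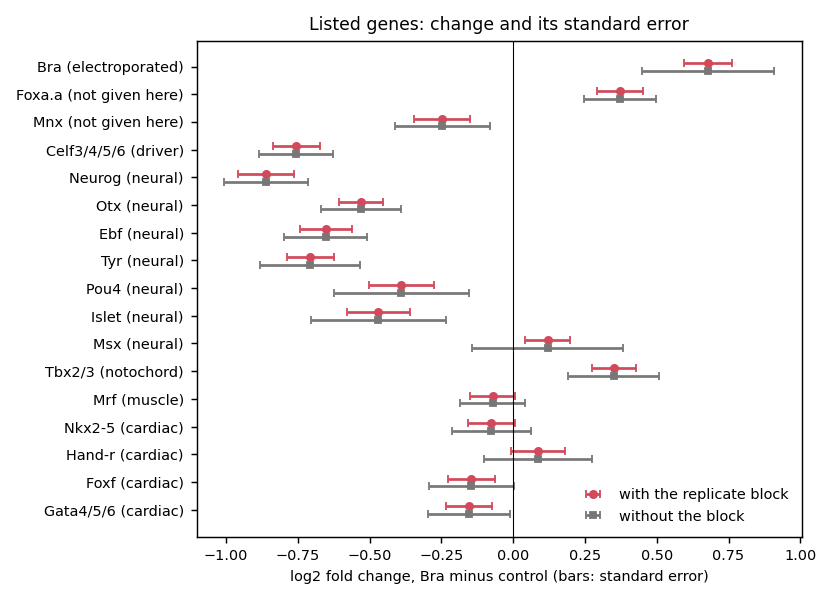
Log2 fold change of Bra against control for the 17 listed genes (horizontal axis), with its standard error when same-numbered libraries are paired (circles) and when they are not (squares). The values coincide, and the bars without pairing are wider, for example 0.23 against 0.08 for Bra.

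Over all 14221 gene models tested, embryos given Bra had 1010 higher and 341 lower transcripts (limma adjusted p under 0.05), which is 7.10% and 2.40% of them and 9.50% together, so 74.8% of the calls were rises. Unpaired, limma called 212 (1.49%), 202 of them rises, and DESeq2 with pairs called 783. The asymmetry was larger among strong changes. At least 2-fold changes numbered 442 rises and 17 falls (3.11% and 0.120% of gene models tested), at least 4-fold changes 194 and 2, and at least 8-fold changes 60 and 0. The added 1 shrinks falls to near 0 reads and rises from near 0. On the log2 scale, paired edgeR gave -4.12 for KH.C2.611 and 7.52 for KH.C4.361, against -2.28 and 7.05 in the main fit. Limma without replicate 1, with the same added 1, called KH.C2.611 lower at -3.16. Both of these values of KH.C2.611 are beyond 8-fold. The median rise was 0.83 on the log2 scale (quartiles 0.48 and 1.68), and the median fall was -0.42 (quartiles -0.63 and -0.32). The median over all gene models was -0.02.

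Most genes that rose were already transcribed in control embryos, as were most of all gene models tested. The median control level of the 1010 was 119 normalised reads, against 272 in Bra embryos, and 164 of them had a control mean under 10. Of the 14221 gene models tested, 1845 had a control mean under 10. Of those 164, 3 reached a mean of at least 100 with Bra. The 60 rises of at least 8-fold started lower than the rest, with a median control mean of 5.61 normalised reads. Only 4 of the 1010 had no read in any control library, of 11 such gene models tested, and their Bra means lay between 4.04 and 13.1 normalised reads. The genes that fell were more abundant than those that rose, with a median of 501 normalised reads in control and 372 in Bra embryos. Each kept reads in at least 1 Bra library, and only 1 gene model tested had no read in any.

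The share of gene models called depended on their level, which also sets the precision of each value. With a 6-library mean of 1 to 10 normalised reads, 3.33% of 1711 gene models were called higher and 0.117% lower. From 10 to 100 the shares were 10.8% and 1.57% of 2995, from 100 to 1000 they were 7.06% and 3.24% of 5777, and from 1000 upward 5.97% and 2.81% of 3738. The median size of a called rise fell over these bands from 2.15 to 1.38, 0.68 and 0.41 on the log2 scale.

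In read mass, the genes called higher made up 4.05%, 4.34% and 4.05% of the normalised reads in control replicates 1 to 3 and 5.50%, 6.38% and 6.33% in Bra replicates 1 to 3. The genes called lower made up 2.10%, 2.09% and 2.12% in control and 1.63%, 1.58% and 1.55% in Bra embryos. These genes were chosen for their difference, so the shares describe its size and do not test it. Of the summed gain, 29.0% came from the 10 genes with the largest gain, all with control means of at least 1164 normalised reads, and 46 genes made up 50% of it.

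**Figure D3:**
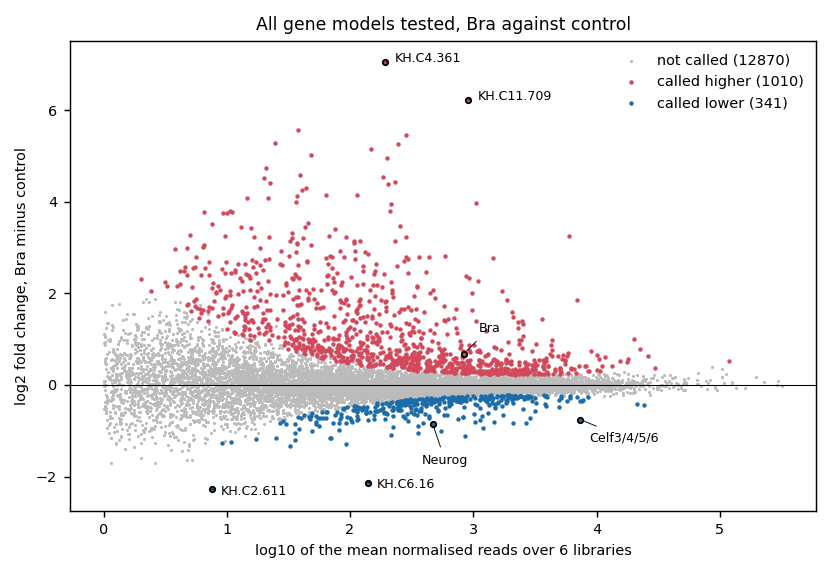
Log2 fold change of Bra against control (vertical axis) against the log10 mean of normalised reads over the 6 libraries (horizontal axis) for all 14221 gene models tested, with the 1010 called higher and 341 called lower coloured. Rises reach 7.05 and falls -2.28, and the rises of at least 4-fold outnumber the falls 194 to 2.

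The 2 largest rises by the naming rule were gene models with little transcript in control embryos. KH.C4.361 had 2.57, 1.02 and 2.15 normalised reads in control replicates 1 to 3, from 6 reads in all, and 320, 526 and 309 in Bra replicates 1 to 3. It rose by 7.05 ± 0.26 on the log2 scale (limma adjusted p = 2.62e-24). From the summed reads the ratio of Bra to control was 190, with an exact binomial 95% interval of 87.0 to 519 that covers counting error only. KH.C11.709 went from 18.0, 26.5 and 24.8 to 1542, 1697 and 2162 normalised reads, a rise of 6.23 ± 0.12 (limma adjusted p = 1.13e-34). Its 3 pairs lay within 5.95 to 6.39, a tighter range than that of KH.C4.361. Both were called unpaired as well (limma adjusted p = 1.55e-04 and 1.19e-05). Neither gene model has a name in the files.

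The 2 largest falls differ in how firmly they stand. KH.C6.16 had 84.7, 317 and 297 normalised reads in control replicates 1 to 3 and 41.4, 41.7 and 52.4 in Bra replicates 1 to 3. Control replicate 1 was far below the other controls, yet above every Bra library, and the gene fell by 2.13 ± 0.20 (limma adjusted p = 1.89e-11, and 0.0842 unpaired). KH.C2.611 had 1.71, 3.06 and 38.8 normalised reads in control and 0.900, 0 and 1.03 in Bra embryos. Its log2 fold change of -2.28 ± 0.64 (limma adjusted p = 0.0131) rested on control replicate 3, which held 36 of its 41 control reads, against 2 reads in all Bra libraries. Without replicate 3 the value was -1.27 (adjusted p = 0.614). The call also ended without replicate 2 (adjusted p = 0.111), in the paired fit of all 15 libraries (adjusted p = 0.116) and unpaired (adjusted p = 0.754). With so few reads the size moved with the method, from -1.24 at a pseudocount of 5 to -4.12 with paired edgeR, and DESeq2 gave -3.68 without a call (adjusted p = 0.0675).

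**Figure D4:**
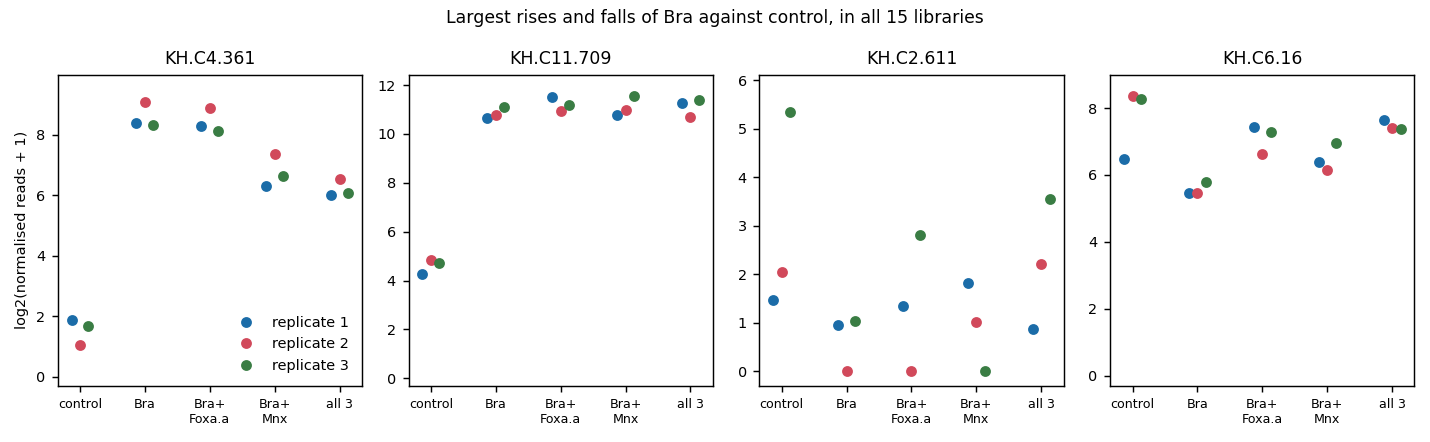
Level of the 2 largest rises and the 2 largest falls of Bra against control, as log2(normalised reads + 1) on 1 scale for all 15 libraries (vertical axes), with 3 libraries in each of the 5 groups (horizontal axes). KH.C11.709 stays high in all groups given Bra, KH.C4.361 is lower where Mnx was added, KH.C6.16 is lowest with Bra alone, and KH.C2.611 is high in 1 control library.

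The size of the change differed between the 3 pairs. Among the genes called higher, the median log2 difference was 0.61 in the pair of replicate 1, 0.84 in that of replicate 2 and 1.02 in that of replicate 3, and 557 of the 1010 had their largest difference in the pair of replicate 3. Among the genes called lower the medians were -0.38, -0.38 and -0.52. Bra itself did not follow this order: its difference was 0.65, 0.87 and 0.52 in the pairs of replicates 1, 2 and 3. The median over all gene models was -0.01 in the pair of replicate 1 and 0 in the other pairs.

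The listed genes moved together by pair. In 16 of the 17 the lowest difference was in the pair of replicate 3, in called and uncalled genes alike, against 32.6% of all gene models tested. Hand-r was the exception. Among the uncalled genes, the log2 fold changes of Mrf, Nkx2-5 and Foxf changed sign without replicate 3, to 0.044, 0.069 and 8.4e-04, while that of Gata4/5/6 stayed below 0 at -0.057. With 1 library of each group per pair, a difference between pairs cannot be tested.

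The direction of the calls held in pairs that had not been used to make them. With the pair of replicate 1, 2 or 3 left out, the remaining 2 pairs gave 851, 731 and 792 genes called higher (5.98%, 5.16% and 5.59% of gene models tested). Of these, 94.0%, 98.4% and 97.9% were also higher in the pair left out, where 47.7%, 49.3% and 49.6% of all gene models tested were higher. Their median log2 difference was 1.19, 1.00 and 0.90 in the pairs that called them and 0.65, 0.88 and 1.02 in the pair left out, so it was smaller in the pairs of replicates 1 and 2 and larger in that of replicate 3. For genes called lower (165, 276 and 211, or 1.16%, 1.95% and 1.49%), 91.5%, 84.4% and 94.3% were also lower in the left-out pair, against 51.5%, 50.0% and 49.8% of all gene models. Their medians were -0.69, -0.47 and -0.54 in the pairs that called them and -0.50, -0.24 and -0.45 in the pair left out.

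**Figure D5:**
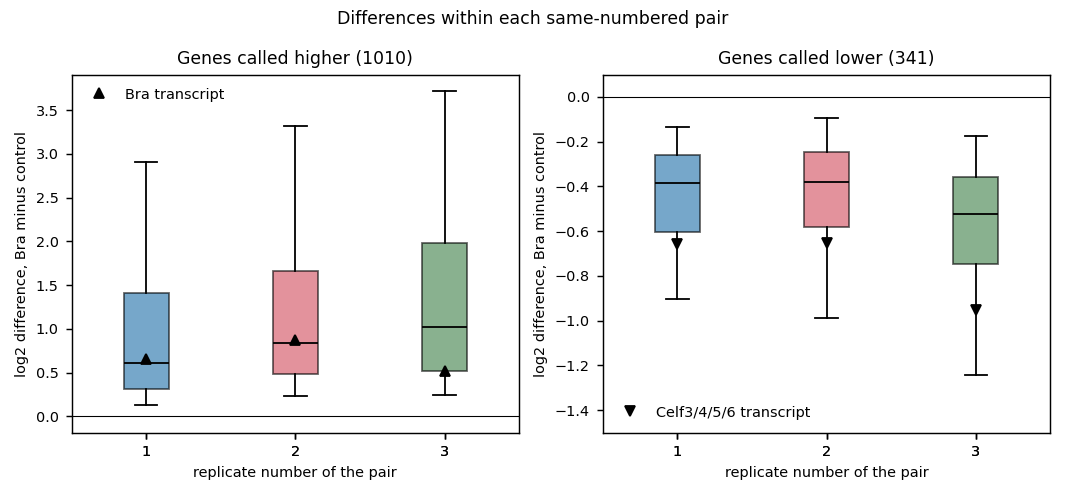
Log2 difference of Bra minus control (vertical axes) within each same-numbered pair (horizontal axes) for the 1010 genes called higher and the 341 called lower; boxes give quartiles and the median, whiskers the 5th to 95th percentile, triangles single transcripts. The rises are largest in the pair of replicate 3, where the difference of Bra itself is smallest.

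Larger rises kept their call in other fits more often than smaller ones. Fold size and calls came from the same libraries, so these counts describe the calls and do not test them. All 60 rises of at least 8-fold had groups that did not overlap (6.63% of gene models tested had all Bra libraries above all controls), and 56 were at least 4-fold in every pair. Of the 60, 52 were also called when the libraries were not paired, as were 1.49% of all gene models tested, counting both directions. With each replicate number left out in turn, 59 were called every time. Each of those fits alone called 5.16% to 5.98% of gene models higher and 1.16% to 1.95% lower. The share of all gene models called in every one of them was not computed. Of the 568 rises under 2-fold, 18 were called without pairing and 228 with each number left out. Of the 341 falls the numbers were 10 and 90, and 172 had groups without overlap, which 3.11% of gene models tested had in that direction.

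Set beside the other embryos given Bra, those given Bra alone kept the highest level of Celf3/4/5/6. On the scale shared by all 15 libraries it stood at 5650 ± 597 normalised reads (SD, n = 3) with Bra alone, and it was lower still in each group given a partner. The log2 difference from Bra alone was -0.52 ± 0.09 where Foxa.a was added (limma with pairs, adjusted p = 0.00142), -0.44 ± 0.09 where Mnx was (adjusted p = 0.0167) and -0.68 ± 0.09 where both were (adjusted p = 7.06e-05). In these 3 comparisons 2.43%, 0.835% and 3.96% of gene models were called lower and 2.29%, 0.491% and 2.55% higher. This order was not particular to Celf3/4/5/6. Among embryos given Bra, the 7 genes of the neural list, Mrf and Foxf also had their highest mean with Bra alone. Ebf was called lower in each of the 3 comparisons (limma with pairs, adjusted p = 4.75e-04, 0.0425 and 2.42e-04), and Islet and Foxf in none. Foxf was nearly level, with a mean of 3089 normalised reads with Bra alone and 3049 with all 3 factors. Bra transcript was higher by 0.57 ± 0.11 with all 3 factors than with Bra alone (adjusted p = 0.00265), and its differences of 0.22 ± 0.11 with Bra+Foxa.a and 0.21 ± 0.11 with Bra+Mnx did not pass (adjusted p = 0.398 and 0.456). The part of the Bra level in the lower Celf3/4/5/6 was not tested.

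The gene models with the largest changes had been chosen with the same Bra libraries, so their values in the other groups are a description. KH.C4.361 stood at 397 ± 126 normalised reads with Bra alone and 353 ± 100.6 with Bra+Foxa.a, but at 113 ± 44.2 with Bra+Mnx and 73.8 ± 14.9 with all 3 factors. KH.C11.709 stood at 1853 ± 326 with Bra alone and between 2261 and 2419 on average in the other 3 groups. KH.C6.16 was at 46.5 ± 6.27 with Bra alone and at 142 ± 38.7, 92.0 ± 28.6 and 177 ± 19.2 with Bra+Foxa.a, Bra+Mnx and all 3 factors.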

How the data were processed

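RNA from whole embryos was sequenced with a stranded mRNA library kit, per the labels' protocols. The tools listed in the submitters' processing notes are TopHat2 (version 2.9.8b) and DESeq (version 1.8.1). Which build, counter and strand setting were used is not given in the sources used here. Per the file headers, the signal deposited is read counts normalised to library size. Dividing each column by its smallest step gave whole numbers (tolerance 0.01) for 100% of values, which were used as recovered reads. A block of log values (24 columns over the 4 tables) was not used.

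Values of the Bra table were transformed to log2(value + 1), and gene models with a mean of at least 1 over the 6 libraries were tested with limma 3.58.1 (limma-trend, R 4.3.3) with group and replicate number as terms, two-sided, with Benjamini-Hochberg adjustment over all gene models tested and a threshold of 0.05. Sample titles give the replicate numbers. The pairing was set before the calls, as same-numbered libraries had deviated together in earlier results of these data. Nothing states that same-numbered samples share a batch. The p-values of the paired fits measure the spread left between these samples after group and replicate number, moderated by the spread pooled over genes. That spread may be partly technical. The other groups given Bra were compared in 1 fit of all 15 libraries after median-of-ratios scaling of recovered reads. The scripts were tested on simulated data. Alternatives were no pairing, other pseudocounts and filters, TMM scaling, edgeR 4.0.16 and DESeq2 1.42.0 on recovered reads, all 15 libraries, and leaving out replicates.

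The members and gene lists were chosen with earlier results of these data known. Named are the 17 listed gene models and, as no table used here names KH models (0 matched in the reference table), the 2 largest rises and 2 largest falls among called genes with a mean of at least 10 in the higher group, the same direction in all pairs and groups without overlap. Reads shared by near-identical or overlapping genes could not be assessed.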

Additional observations from a re-analysis of the deposited data

How the results depend on the processing

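Pairing had the largest effect on the counts. With no replicate block, 212 gene models were called, 202 higher and 10 lower, of which 184 and 2 at least 2-fold; all 212 were among the 1351 of the paired fit, and the median standard error was 0.21 without and 0.11 with pairing. edgeR with no replicate block gave 203 (194 and 9, and 177 and 2 at least 2-fold). The paired fit has 2 residual degrees of freedom, so its calls lean on the spread pooled over genes (prior degrees of freedom 38.8). With pairing, edgeR called 1455, of which 1315 shared, and DESeq2 called 783 (642 higher and 141 lower, and 9 lower at least 2-fold), of which 769 shared, with no shared gene in the opposite direction. All 15 libraries gave 201 lower, and a pseudocount of 5 gave 11 lower at least 2-fold. TMM scaling gave 983 higher and 355 lower. KH.C2.611 did not pass the filter at a mean of at least 10.

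Leaving out single replicates gave 49 to 1016 calls, with 49 to 851 higher, 0 to 276 lower, 49 to 500 higher at least 2-fold and 0 to 31 lower at least 2-fold; with pairing kept the range was 1003 to 1016 calls. Without pairing, 0 lower genes remained without Bra replicate 3. Uncalled genes changed sign in some of these fits: Msx ranged from -0.13 to 0.36, Mrf from -0.15 to 0.044, Nkx2-5 from -0.20 to 0.069, Hand-r from -0.035 to 0.25 and Foxf from -0.26 to 8.4e-04 (log2 fold changes). Among the 21 named genes, 10 lost their call without pairing, and Celf3/4/5/6, Neurog, KH.C4.361 and KH.C11.709 kept theirs. With a single library also left out of the unpaired fit, the adjusted p of Celf3/4/5/6 reached 0.179 and that of Neurog 0.148. The cause of these shifts was not tested.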
